A study of Rattus norvegicus with 16 samples.

Results

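The genes described here are those whose symbol marks them as a subunit of an integrin or a laminin, taken from a table of gene counts for rat shoulder muscle. A gene was a member if its symbol began with Itga, Itgb, Lama, Lamb or Lamc followed by a digit, or was one of a few integrin alpha symbols that carry a letter in place of the digit, such as Itgal and Itgam. This gave 30 of the 17147 genes in the table, and all 30 passed the filter for low counts that left 11658 genes for testing. The symbols also bring in 3 genes that encode no subunit: Itgb1bp1 and Itgb1bp2, whose products bind the tail of integrin beta 1, and Itgb3bp, which encodes a centromere protein. The subunits Lama2, Lama4, Lamb1, Itgav and some others were not analysed here: the classes used below hold 3 of 4 listed muscle genes, 6 of 9 mesenchymal, 7 of 8 leukocyte and 9 of 13 epithelial, Schwann or other basement membrane genes. The filter compares counts per library total, without further scaling, with a cutoff of 0.406 CPM. By that measure 0 of 4 controls passed for Itgb3 and Itgb8, 2 for Itgal, Itgb7 and Lama1 and 3 for Itgam, so these genes needed the injured groups to pass. That favours a rise over a fall among them.

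Libraries were made from the supraspinatus, a muscle of the rotator cuff, of Sprague Dawley rats. The injured rats had a bilateral full-thickness tear of this muscle combined with suprascapular neurectomy, which cuts its nerve supply, so muscle unloading and denervation come together in every injured group. Groups were taken 10, 30 and 60 days after the injury, and the controls at 0 days were not operated on, with 4 libraries in each of the 4 groups. No group had the tear alone, the nerve cut alone or a sham operation, so the effect of each cannot be told apart. The labels do not say which libraries came from the same rat, so the tests measure the spread between libraries.

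Integrins are receptors of 1 alpha and 1 beta chain that span the cell membrane and tie the cytoskeleton to the matrix or to other cells. Laminins are basement membrane proteins of 1 alpha, 1 beta and 1 gamma chain, and the fibre's basement membrane is held to the sarcolemma by integrin alpha 7 beta 1 and by dystroglycan. Leukocytes carry integrins of their own, mostly built on beta 2 or beta 7, which hold them to vessel walls and let them enter tissue.

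Library totals ran from 17.2 M to 39.9 M fragments, and the 60-day totals were all below those of the other groups. Levels are given as CPM, the count as a share of the library's total after scaling by edgeR's TMM method, and differences as log2 fold changes ± the standard error. CPM is not corrected for gene length, so levels are compared between libraries and never between genes. A gene was called where edgeR's quasi-likelihood test gave a Benjamini-Hochberg adjusted p under 0.05 over all 11658 genes. The muscle identity of the samples was plain in the fibre markers (creatine kinase, skeletal actin, alpha-actinin 2 and desmin), whose summed level was 102746 to 109651 CPM at 0 days. It was 17230 to 22397 at 10 days, 34995 to 60412 at 30 days and 58184 to 78512 at 60 days. In bulk tissue, fewer cells of a type and less RNA per cell cannot be told apart.

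Values are given for the muscle, mesenchymal and leukocyte subunits in turn, and the classes as such were not tested against each other. The 4 leukocyte genes Itgal, Itgam, Itgb2 and Itgb7 rose by 10 days and were still above the controls at 60 days. Laminin alpha 5 (Lama5) rose 6.49-fold by 10 days and then came back most of the way. The muscle genes Lamb2 and Itgb1bp2 fell by 10 days and were at or above the control levels at 60 days, whereas Itga7 was called only at 30 days. Among mesenchymal genes Itga11 rose at every time, Itga10 and Itga8 passed the test late, and Itgb5 fell.

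Of the 30 members, 17 were called at 10 days, 10 higher and 7 lower, in a comparison in which 62.7% of all tested genes were called (33.3% higher and 29.4% lower). At 30 days 16 members were called, 13 higher and 3 lower, against 64.6% of all genes (33.7% higher and 30.9% lower). At 60 days 16 members were called, 15 higher and 1 lower, against 59.0% of all genes (29.9% higher and 29.1% lower). The share of members called was thus near or below that of all genes at each time. The median log2 fold change of the members was -0.06, 0.34 and 0.57 at 10, 30 and 60 days, beside 0.06, 0.05 and 0.04 for all tested genes. In a joint test of the 3 differences from 0 days, 25 members and 84.7% of all genes were called.

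Changes between the injured groups were tested in the same model. From 10 to 30 days 14 members were called, 11 higher and 3 lower, against 47.3% of all genes. From 30 to 60 days 7 members were called, 4 higher and 3 lower, against 22.6% of all genes. From 10 to 60 days 13 members were called, 9 higher and 4 lower, against 61.1% of all genes (29.1% higher and 31.9% lower). With day 60 library 4 left out, 14 members were called at 60 days against 0 days, and 12 from 10 to 60 days. That library had the highest summed level of macrophage and leukocyte markers at 60 days, 154 CPM beside 81.8 to 103 in the other 3.

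**Figure D1:**
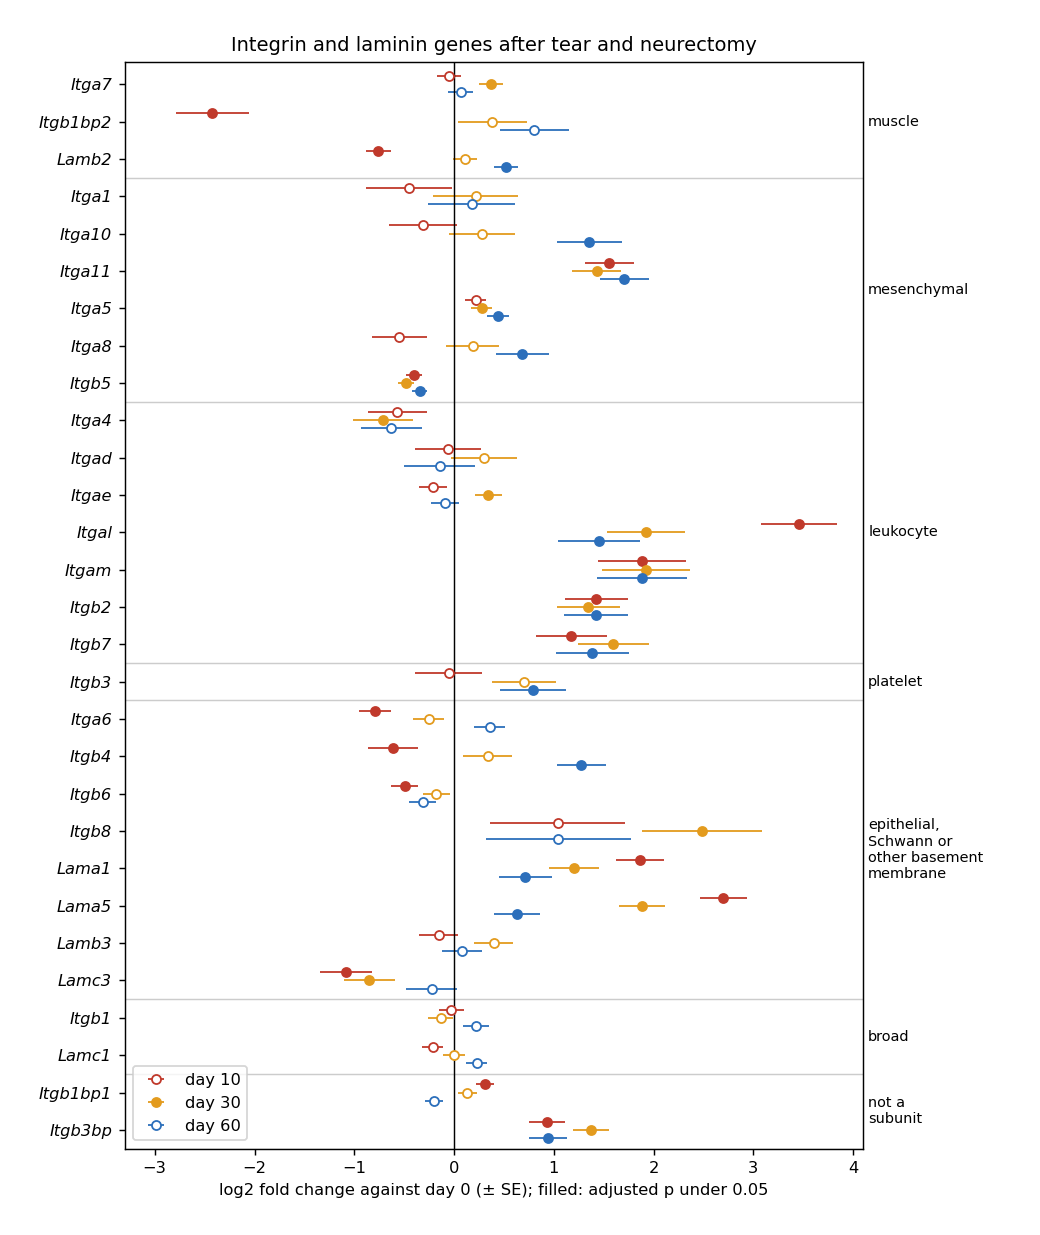
Log2 fold change against 0 days (± SE, x axis) of the members named in the text (y axis, by class) at 10, 30 and 60 days, 4 libraries a group; filled points have an adjusted p under 0.05. The points of Itgal, Itgam, Itgb2 and Itgb7 lie to the right of 0 at every time, and Itgb1bp2 is at -2.42 at 10 days.

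Laminin chains moved in both directions. Lama5 encodes the alpha chain of laminins found in many adult basement membranes, those of vessels among them, and at the neuromuscular junction. Its level was 27.3, 32.9, 27.7 and 24.2 CPM at 0 days, 187, 196, 162 and 183 at 10 days, 166, 100.1, 71.7 and 76.4 at 30 days, and 55.2, 46.6, 30.7 and 41.0 at 60 days. Every library at 10 and 30 days was above all controls, while at 60 days library 3 fell within their range. The log2 fold changes were 2.70 ± 0.24 at 10 days (edgeR adjusted p = 9.75e-08), 1.88 ± 0.23 at 30 days (adjusted p = 4.52e-06) and 0.63 ± 0.23 at 60 days (adjusted p = 0.0269). The 60-day call was lost without day 0 library 1 or 4 or day 60 library 1 or 2, with values of 0.49 to 0.64. Lama5 fell from 10 to 60 days by 2.07 ± 0.23 on the log2 scale (edgeR adjusted p = 1.95e-06). Endothelial markers did not move with it, their summed level being 197 to 240 CPM at 0 days and 105 to 166 at 10 days.

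Lama1 encodes the alpha chain of laminin 111, best known from embryonic basement membranes. It read 0.450, 0.403, 0.669 and 0.671 CPM at 0 days, 1.89, 1.68, 1.88 and 2.55 at 10 days, 1.56, 1.09, 1.48 and 0.925 at 30 days, and 0.830, 1.07, 0.818 and 0.889 at 60 days. No injured library overlapped the controls, though the level was low throughout. Against 0 days the log2 fold changes were 1.86 ± 0.24, 1.20 ± 0.25 and 0.71 ± 0.27 (edgeR adjusted p = 4.64e-06, 0.000532 and 0.0301). The 60-day call was lost without day 0 library 1 or 2 or day 60 library 2, with values of 0.59 to 0.66, and with DESeq2 (0.71).

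Lamb3, a laminin beta chain of epithelia, was between 2.17 and 4.87 CPM in all 16 libraries and was called at no time against 0 days. Its groups overlapped. Summed epithelial markers were low, 0.623 to 1.72 CPM at 0 days and 0.526 to 0.615 at 10 days. With scaling by library totals the uncalled 10-day value of Lamb3, -0.15, turned to 0.50, and all 3 times were called higher.

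Lamb2, the laminin beta 2 chain concentrated at the neuromuscular junction, moved opposite to Lama5 at 10 days and from 10 to 60 days. It read 199, 255, 216 and 216 CPM at 0 days, 168, 108, 126 and 122 at 10 days, 207, 251, 278 and 219 at 30 days, and 303, 336, 313 and 318 at 60 days. All 10-day libraries lay below the controls and all 60-day libraries above them. The 3 log2 fold changes against 0 days were -0.76 ± 0.12 at 10 days (edgeR adjusted p = 4.75e-05), 0.11 ± 0.12 at 30 days (adjusted p = 0.451) and 0.52 ± 0.12 at 60 days (adjusted p = 0.00178). From 10 to 60 days Lamb2 rose by 1.28 ± 0.12 (edgeR adjusted p = 3.08e-07). At 60 days Lamb2 and Lama5 were both called higher than at 0 days. The fall at 10 days depended on the scaling, being -0.10 and no longer called when libraries were scaled by their totals.

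Lamc1, the gamma chain shared by most laminins, was called at no time against the controls. It read 127, 153, 139.7 and 129.7 CPM at 0 days, 133, 111, 114 and 115 at 10 days, 137, 142, 135 and 133 at 30 days, and 195, 139.5, 131 and 177 at 60 days. Each injured group overlapped the controls. The log2 fold changes of -0.21 ± 0.11, -0.00 ± 0.11 and 0.23 ± 0.11 all missed the threshold (edgeR adjusted p = 0.0934, 0.984 and 0.0823), while the rise from 10 to 60 days, 0.44 ± 0.11, passed it (adjusted p = 0.00212). Scaled by library totals, Lamc1 was 0.44, 0.49 and 0.63 above the controls, called at each time, and its rise from 10 to 60 days was 0.19 and not called.

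Lamc3, a gamma chain of low level, read 2.14, 1.47, 1.74 and 1.77 CPM at 0 days, 1.02, 0.657, 0.857 and 0.799 at 10 days, 0.815, 1.02, 1.08 and 1.01 at 30 days, and 0.784, 1.35, 2.28 and 1.69 at 60 days. The groups at 10 and 30 days did not overlap the controls, and the 60-day group did. It fell by 1.08 ± 0.26 at 10 days and by 0.85 ± 0.26 at 30 days on the log2 scale (edgeR adjusted p = 0.00174 and 0.0089). Both calls were lost with scaling by library totals (-0.42 and -0.36). The difference from 10 to 60 days, 0.85 ± 0.27 (edgeR adjusted p = 0.0107), was lost without day 60 library 3 and with library totals (0.61 in each).

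**Figure D2:**
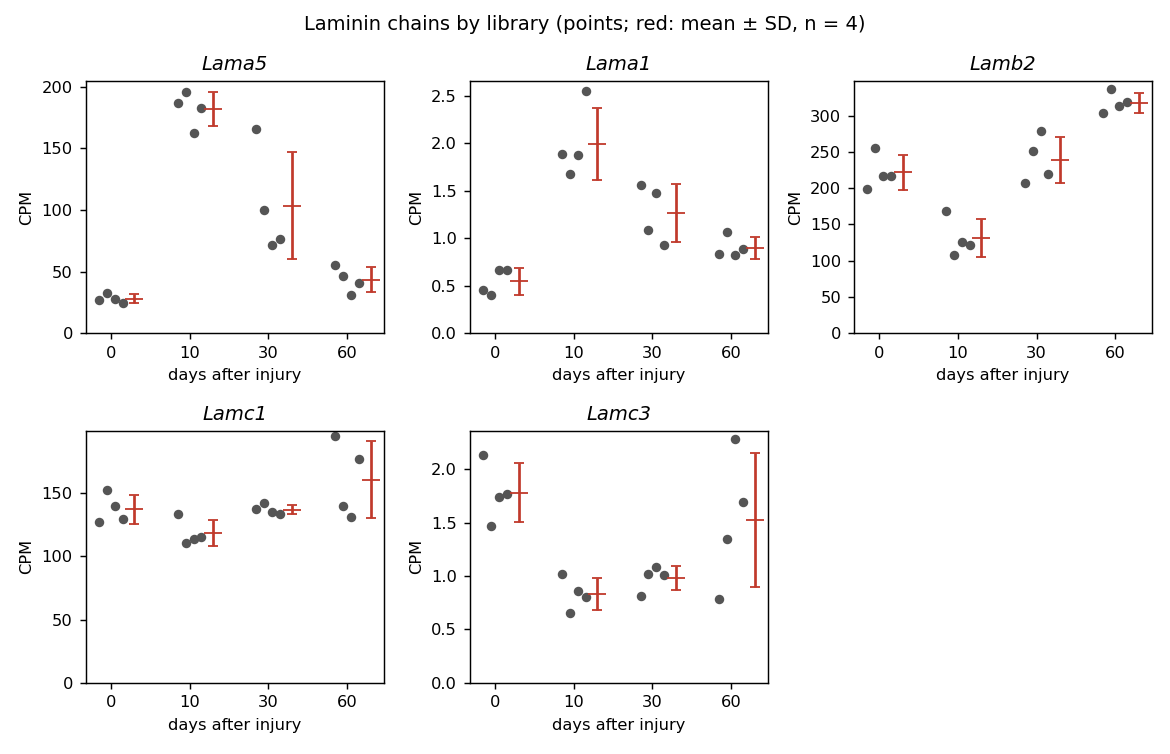
Level in CPM (y axis, from 0) of 5 laminin genes in each library at 0, 10, 30 and 60 days (x axis); points are libraries and red bars the mean ± SD, n = 4. Lama5 peaks at 10 days (182 ± 14.1 CPM against 28.0 ± 3.60 at 0 days), where Lamb2 is lowest (131 ± 25.7 against 222 ± 24.0).

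A ratio of 2 genes within a library does not depend on how libraries are scaled. The pairs described next were chosen after their values were seen and were not tested. The log2 ratio of Lama5 to Lamc1 counts was -2.30 ± 0.10, 0.62 ± 0.15, -0.49 ± 0.54 and -1.90 ± 0.25 at 0, 10, 30 and 60 days (mean ± SD, n = 4). The ratio of Lamb2 to Lamc1 was 0.69 ± 0.06, 0.13 ± 0.15, 0.79 ± 0.19 and 1.00 ± 0.31 at the same times. Every 10-day library was below every control in this ratio, and every 10-day library was above every control in the ratio of Lama5 to Lamc1.

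Among the muscle genes, Itga7 encodes the laminin-binding alpha chain of skeletal muscle. It read 128, 132, 102 and 115 CPM at 0 days, 129.9, 118, 98.4 and 113 at 10 days, 200.1, 144, 126 and 147 at 30 days, and 123, 133, 120.5 and 122 at 60 days. The groups overlapped, and day 30 library 1 was far above the rest of its group. That library also had the lowest fibre marker sum of its group, 34995 CPM and the highest Lama5. Its log2 fold changes were -0.05 ± 0.12, 0.37 ± 0.12 and 0.06 ± 0.12 (edgeR adjusted p = 0.717, 0.0139 and 0.668), and the 30-day call was lost without day 30 library 1 (0.22). Scaling by library totals gave 0.60, 0.88 and 0.47, all called higher. The RefSeq annotation places another gene, Mettl7b, over part of Itga7, and reads of the 2 cannot be told apart where the counting did not use strand.

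Itgb1, the beta chain that pairs with the alpha 7 chain and with most matrix-binding alpha chains, was called at no time against 0 days. It read 272, 296, 294 and 282 CPM at 0 days, 304, 263, 274 and 282 at 10 days, 266, 282, 233 and 261 at 30 days, and 459, 286, 266 and 323 at 60 days. Day 60 library 1 stood above all others. Differences from 0 days were, on the log2 scale, -0.03 ± 0.13, -0.13 ± 0.13 and 0.22 ± 0.13 (edgeR adjusted p = 0.866, 0.368 and 0.144), and scaling by library totals gave 0.63, 0.36 and 0.62, all called higher. The log2 ratio of Itga7 to Itgb1, chosen after its values were seen, was -1.27 ± 0.19, -1.29 ± 0.14, -0.77 ± 0.25 and -1.39 ± 0.37 at 0, 10, 30 and 60 days.

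Itgb1bp2 encodes melusin, a muscle protein that binds the tail of integrin beta 1. It had the widest swing of the muscle genes, reading 118, 130.1, 128 and 125 CPM at 0 days, 46.1, 12.9, 12.8 and 21.6 at 10 days, 109, 178, 221 and 147 at 30 days, and 138, 250.4, 305 and 184 at 60 days. All 10-day libraries lay below the controls and all 60-day libraries above them. It fell by 2.42 ± 0.37 on the log2 scale at 10 days (edgeR adjusted p = 3.17e-05), and at 30 and 60 days the differences of 0.38 ± 0.34 and 0.81 ± 0.35 missed the threshold (adjusted p = 0.344 and 0.0567). From 10 to 60 days it rose by 3.23 ± 0.38 (edgeR adjusted p = 3.07e-06). The 10-day library with the most Itgb1bp2 also had the highest fibre marker sum of its group, 22397 CPM. At 30 days library 3 was likewise the highest in both. At 60 days the reverse held, library 1 having the highest fibre marker sum, 78512 CPM, and the lowest Itgb1bp2. Of the 3 muscle genes, 2 fell at 10 days, 1 rose at 30 days (Itga7) and 1 rose at 60 days (Lamb2), with median log2 fold changes of -0.76, 0.37 and 0.52. The fibre markers' part in these differences was not tested. Of all tested genes, 29.4% were called lower at 10 days, 33.7% higher at 30 days and 29.9% higher at 60 days.

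**Figure D3:**
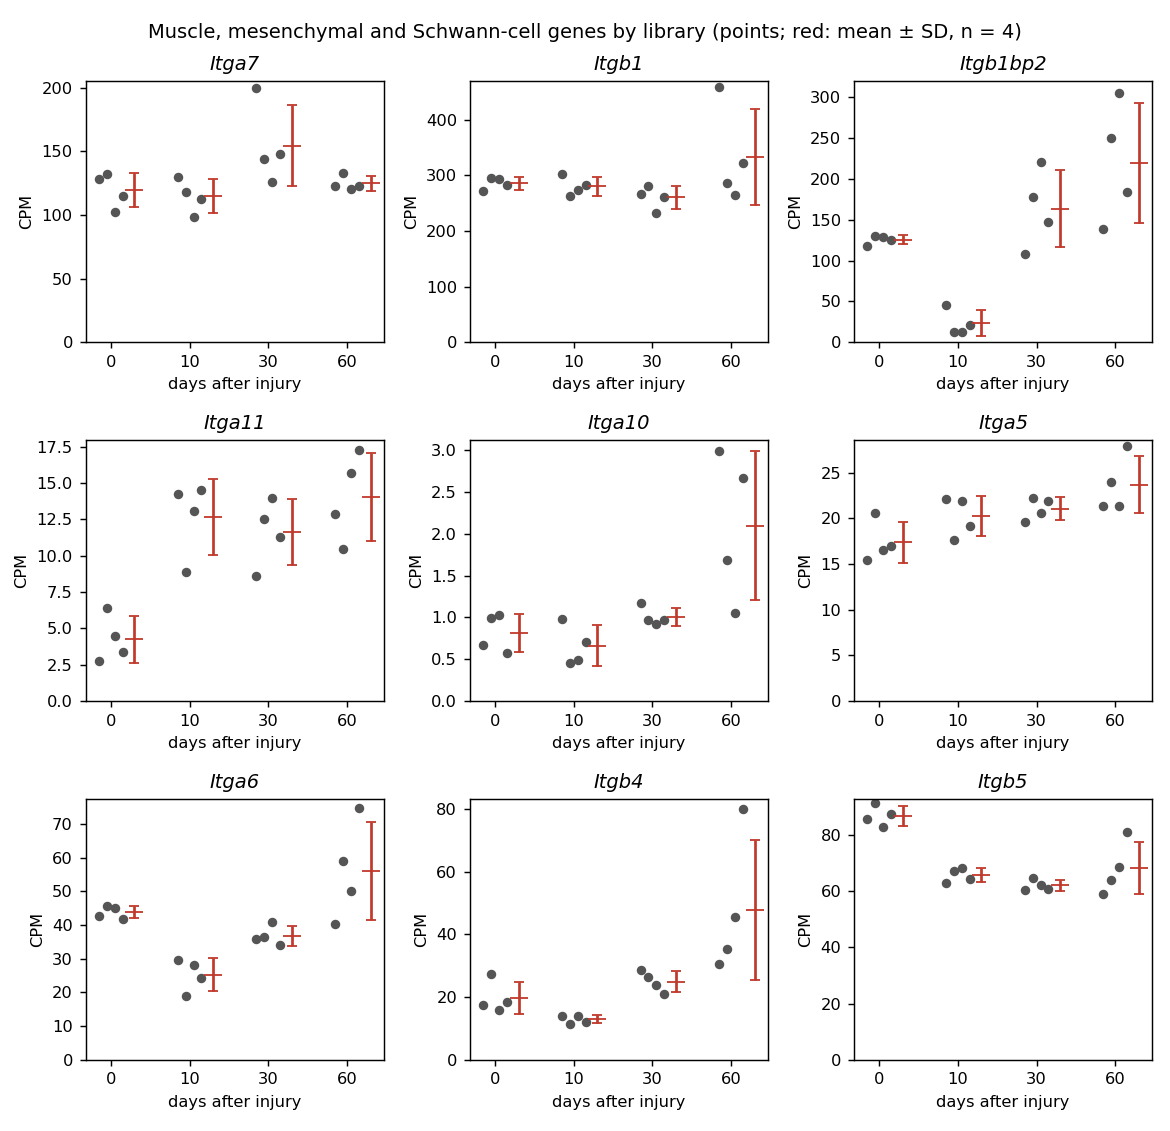
Level in CPM (y axis, from 0) of 8 integrin genes and Itgb1bp2 in each library at 0, 10, 30 and 60 days (x axis); points are libraries and red bars the mean ± SD, n = 4. Itgb1bp2 drops to 23.4 ± 15.7 CPM at 10 days from 126 ± 5.20, and Itga11 is higher at all injured times.

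The mesenchymal subunits are those of fibroblasts and the vessel wall. Itga11, a collagen receptor chain of fibroblasts, read 2.76, 6.42, 4.46 and 3.35 CPM at 0 days, 14.2, 8.87, 13.0 and 14.5 at 10 days, 8.61, 12.6, 14.0 and 11.3 at 30 days, and 12.9, 10.4, 15.7 and 17.2 at 60 days. No injured library overlapped the controls. The log2 fold changes were 1.56 ± 0.24, 1.43 ± 0.24 and 1.71 ± 0.25 (edgeR adjusted p = 3.79e-05, 9.77e-05 and 2.59e-05). Relative to Itgb1 in the same library, in a pair chosen after its values were seen, the log2 ratio was -6.14 ± 0.47, -4.49 ± 0.27, -4.51 ± 0.36 and -4.56 ± 0.50 at 0, 10, 30 and 60 days. The sum of the fibroblast markers was higher too. It was 281 to 528 CPM at 0 days, and 572 to 1583, 888 to 1297 and 768 to 1617 at 10, 30 and 60 days. Singly the markers did not all follow Itga11. Of the 4, 3 were called higher at 10 days and all 4 at 30 and 60 days. From 10 to 60 days 2 rose and 1 fell, while Itga11 differed by 0.15 ± 0.23 (edgeR adjusted p = 0.584). The markers' part in the rise of Itga11 was not tested.

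Itga10, the other collagen receptor chain that passed the test, did so only in comparisons with the 60-day group. It read 0.675, 0.990, 1.03 and 0.575 CPM at 0 days, 0.987, 0.460, 0.494 and 0.707 at 10 days, 1.17, 0.973, 0.920 and 0.965 at 30 days, and 3.00, 1.68, 1.05 and 2.67 at 60 days. The 60-day libraries lay above all controls, library 3 by a small margin. Against 0 days the log2 fold changes were -0.31 ± 0.34, 0.28 ± 0.33 and 1.36 ± 0.32 (edgeR adjusted p = 0.444, 0.465 and 0.00183), and the gene rose by 1.07 from 30 to 60 days. Itga1, a further collagen receptor chain, read 6.07, 1.36, 2.19 and 2.40 CPM at 0 days, 3.13, 1.58, 1.22 and 2.61 at 10 days, 5.88, 3.02, 2.28 and 2.45 at 30 days, and 2.49, 3.31, 2.92 and 4.53 at 60 days. Its groups overlapped, library 1 was the highest at 0, 10 and 30 days, and no difference was called. Pelo lies over part of Itga1 in the annotation.

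Itga5, the fibronectin receptor chain, read 15.5, 20.6, 16.5 and 16.96 CPM at 0 days, 22.2, 17.7, 21.9 and 19.1 at 10 days, 19.6, 22.3, 20.6 and 21.9 at 30 days, and 21.4, 24.0, 21.3 and 28.0 at 60 days. Only at 60 days were all libraries above all controls. On the log2 scale the fold changes were 0.22 ± 0.11, 0.28 ± 0.11 and 0.44 ± 0.11 (edgeR adjusted p = 0.097, 0.0364 and 0.00257). The 30-day call was lost without day 0 library 1, 3 or 4 or day 30 library 2, 3 or 4, with values of 0.23 to 0.29. It was also lost with RLE scaling, DESeq2, no filter for low counts or a title-letter covariate (0.25 to 0.26). Itga5 and Itga7 were set against each other as the mesenchymal and the muscle alpha chain. Their log2 ratio differed from 0 days by 0.27, -0.07 and 0.37 at 10, 30 and 60 days. Two-sided exact permutation tests gave p = 0.0857, 0.771 and 0.0286, and after Benjamini-Hochberg adjustment over 8 such tests 0.171, 0.771 and 0.0762, so none passed. The smallest p that 4 against 4 libraries allow is 0.0286, which became 0.0762 after adjustment, so even full separation of 2 groups did not pass here.

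Itga8, an alpha chain of smooth muscle and pericyte-like cells, read 5.29, 7.70, 5.89 and 4.93 CPM at 0 days, 5.54, 2.53, 3.66 and 4.58 at 10 days, 5.60, 8.83, 6.68 and 5.99 at 30 days, and 6.32, 6.95, 10.9 and 14.3 at 60 days. The injured groups each overlapped the controls, and day 60 library 4 was the highest of all. Its log2 fold changes were -0.55 ± 0.27, 0.19 ± 0.27 and 0.68 ± 0.27 (edgeR adjusted p = 0.0908, 0.557 and 0.0379). The 60-day call was lost without day 0 library 1, 3 or 4 or day 60 library 3 or 4, with values of 0.44 to 0.69. It was also lost with limma-voom and with a replicate block (0.61 and 0.66). From 10 to 60 days Itga8 rose by 1.23 ± 0.27 (edgeR adjusted p = 0.000914).

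Itgb5, a beta chain of vitronectin receptors, was the only member called lower at all 3 times. It read 85.5, 91.3, 82.7 and 87.5 CPM at 0 days, 62.9, 67.1, 68.1 and 64.5 at 10 days, 60.5, 64.7, 62.1 and 60.9 at 30 days, and 59.0, 64.1, 68.7 and 81.0 at 60 days. No injured library reached the lowest control. It fell by 0.40 ± 0.08, 0.48 ± 0.08 and 0.35 ± 0.08 on the log2 scale (edgeR adjusted p = 0.000288, 5.51e-05 and 0.00134). With scaling by library totals the sign turned, to 0.26, 0.01 and 0.07, and the first of these was called higher (edgeR adjusted p = 0.0212 at 10 days). Of the 6 mesenchymal members, 1 rose and 1 fell at 10 days, 2 rose and 1 fell at 30 days, and 4 rose and 1 fell at 60 days. Their median log2 fold changes were -0.36, 0.25 and 0.56. Among all tested genes, 33.3%, 33.7% and 29.9% were called higher and 29.4%, 30.9% and 29.1% lower at these times.

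The promoters of 4 leukocyte members are shown because all 4 hold TGTGGT (a RUNX core) and 2 hold GAGGAA (the core bound by PU.1, a myeloid and B-cell factor), letters known from leukocyte promoters, while the genes differed in response. Each sequence runs 5′ to 3′ on the gene's strand from 250 bases before to 50 bases after the RefSeq start in build GRCr8, and capitals mark the 2 motifs on either strand. Itgam lies at chr1:192089342-192089641 on the plus strand, Itgb7 at chr7:135239022-135239321 on the minus strand, Itga4 at chr3:84569765-84570064 on the plus strand and Itgae at chr10:58203118-58203417 on the plus strand.
Itgam: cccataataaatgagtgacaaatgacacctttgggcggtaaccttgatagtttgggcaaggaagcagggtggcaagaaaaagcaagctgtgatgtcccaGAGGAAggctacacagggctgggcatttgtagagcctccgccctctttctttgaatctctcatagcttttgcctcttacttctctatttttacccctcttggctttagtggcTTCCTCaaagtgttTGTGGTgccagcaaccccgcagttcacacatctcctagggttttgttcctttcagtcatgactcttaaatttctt
Itgb7: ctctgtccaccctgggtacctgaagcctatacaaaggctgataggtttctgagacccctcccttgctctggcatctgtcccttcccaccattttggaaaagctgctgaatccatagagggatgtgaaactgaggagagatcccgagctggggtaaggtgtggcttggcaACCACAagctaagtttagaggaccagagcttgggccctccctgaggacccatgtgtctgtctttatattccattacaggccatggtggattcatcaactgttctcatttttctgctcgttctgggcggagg
Itga4: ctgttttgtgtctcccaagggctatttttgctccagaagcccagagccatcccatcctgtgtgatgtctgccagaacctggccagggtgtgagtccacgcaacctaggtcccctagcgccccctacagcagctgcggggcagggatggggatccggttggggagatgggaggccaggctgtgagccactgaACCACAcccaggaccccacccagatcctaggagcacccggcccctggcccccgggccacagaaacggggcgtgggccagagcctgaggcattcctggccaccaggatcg
Itgae: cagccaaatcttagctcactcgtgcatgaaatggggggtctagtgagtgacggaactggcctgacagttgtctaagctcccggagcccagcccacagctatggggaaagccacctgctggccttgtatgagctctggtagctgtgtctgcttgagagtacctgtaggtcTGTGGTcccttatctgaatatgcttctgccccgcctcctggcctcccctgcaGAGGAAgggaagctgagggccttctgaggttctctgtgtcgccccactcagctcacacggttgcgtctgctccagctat
A RUNX core was found in 4 of the 4 leukocyte promoters and in 0 of the other 17 member promoters looked up, against 17.3% of 33469 rat promoters of this length. A PU.1 core was found in 2 of these 4, Itgam and Itgae, in 10 of the 21 member promoters, and in 27.6% of all. The E-box CANNTG was in 14 of the 21 (72.1% of all promoters) and the GC box GGGCGG in 9 of the 21 (33.1% of all). The 4 motifs were searched on both strands, and those in capitals do not overlap one another. Itgam and Itgb7 rose at all 3 times, while Itga4 and Itgae did not. A RUNX core that all 4 hold cannot separate them by response, so nothing is concluded from it. The leukocyte members Itgal, Itgb2 and Itgad had no promoter entry and were not looked up.

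Itgal, the alpha chain of LFA-1 on T cells and other leukocytes, had the largest fold change among the members. It read 0.225, 0.807, 0.535 and 1.10 CPM at 0 days, 9.05, 6.14, 8.90 and 6.12 at 10 days, 2.83, 3.40, 2.04 and 2.01 at 30 days, and 1.71, 1.12, 1.17 and 3.38 at 60 days. No injured library overlapped the controls, though the lowest at 60 days was close to the highest control. The 3 log2 fold changes against 0 days were 3.46 ± 0.38, 1.92 ± 0.39 and 1.46 ± 0.41 (edgeR adjusted p = 8.36e-07, 0.000463 and 0.00635), and Itgal fell by 2.01 ± 0.34 from 10 to 60 days (adjusted p = 9.17e-05). Summed T-cell markers were 2.25 to 4.60 CPM at 0 days and 10.8 to 16.9, 12.6 to 15.98 and 6.45 to 16.5 at 10, 30 and 60 days. Most of that sum was Cd4, and Cd3d was too low to test. The summed markers thus stayed high at 30 days, when Itgal had dropped by 1.54 on the log2 scale from its 10-day level.

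Itgam, the alpha chain of Mac-1 on macrophages and neutrophils, did not share that early peak. It read 0.450, 1.03, 0.937 and 0.814 CPM at 0 days, 3.69, 2.43, 3.69 and 2.40 at 10 days, 2.59, 5.01, 2.76 and 2.01 at 30 days, and 2.12, 1.18, 2.69 and 6.04 at 60 days. Every injured library was above every control. Differences from 0 days were, on the log2 scale, 1.88 ± 0.44, 1.92 ± 0.44 and 1.88 ± 0.45 (edgeR adjusted p = 0.00147, 0.00128 and 0.00211). Without day 60 library 4 the 60-day value was 1.29, still called. In a pair chosen after its values were seen, the log2 ratio of Itgal to Itgam was -0.40 ± 0.61, 1.31 ± 0.04, -0.22 ± 0.33 and -0.60 ± 0.50 at 0, 10, 30 and 60 days. All 10-day libraries were above all others in that ratio.

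Itgb2, the beta chain that LFA-1 and Mac-1 share, read 1.97, 2.24, 2.36 and 2.40 CPM at 0 days, 6.53, 4.17, 7.68 and 5.75 at 10 days, 5.21, 7.31, 4.44 and 5.79 at 30 days, and 3.18, 3.98, 5.96 and 10.8 at 60 days. No injured library overlapped the controls, and the 60-day group was the most spread. The log2 fold changes were 1.42 ± 0.32, 1.35 ± 0.32 and 1.42 ± 0.32 (edgeR adjusted p = 0.000914, 0.00149 and 0.00131). Without day 60 library 4 the 60-day value was 0.97, still called. The log2 ratio of Itgb2 to Itgb1, the leukocyte against the broad beta chain, was -6.98 ± 0.10, -5.57 ± 0.34, -5.53 ± 0.20 and -5.92 ± 0.98. It differed from 0 days by 1.41, 1.45 and 1.06. Exact permutation tests gave p = 0.0286, 0.0286 and 0.143 (adjusted 0.0762, 0.0762 and 0.229), so none passed after adjustment. At 10 and 30 days every library was above every control in this ratio. Even such full separation, with the smallest possible p, did not pass, so these tests cannot decide whether the ratio differed.

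Itgb7, the beta chain of gut-homing and mucosal leukocytes, read 0.281, 0.587, 0.446 and 0.766 CPM at 0 days, 1.45, 1.28, 1.29 and 0.768 at 10 days, 2.05, 1.54, 1.08 and 1.73 at 30 days, and 0.599, 1.57, 1.52 and 1.87 at 60 days. Day 60 library 1 lay within the control range, and day 10 library 4 only just above it. Against 0 days the log2 fold changes were 1.17 ± 0.36, 1.60 ± 0.35 and 1.38 ± 0.37 (edgeR adjusted p = 0.00895, 0.000876 and 0.00407). Its alpha partners behaved otherwise. Itgae read 8.15, 8.66, 9.68 and 10.0 CPM at 0 days, 8.07, 7.26, 7.68 and 8.61 at 10 days, 14.4, 10.5, 10.2 and 11.3 at 30 days, and 6.50, 9.76, 8.24 and 9.87 at 60 days. It was called only at 30 days (0.34 ± 0.14, edgeR adjusted p = 0.0377). That call was lost without day 0 library 1 or 2 or day 30 library 1 or 4 (0.22 to 0.36). RLE scaling and no filter for low counts also ended it (0.31 and 0.33). Scaling by library totals turned the uncalled 10-day value of Itgae, -0.21, to 0.45, called higher.

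Itga4, the alpha chain of VLA-4, read 10.3, 5.21, 4.91 and 4.36 CPM at 0 days, 6.01, 3.65, 3.53 and 3.35 at 10 days, 2.66, 5.51, 3.68 and 3.02 at 30 days, and 5.40, 3.08, 3.39 and 3.96 at 60 days. The groups overlapped, and library 1 stood above the rest at 0 and at 10 days. On the log2 scale the fold changes were -0.57 ± 0.29, -0.71 ± 0.30 and -0.63 ± 0.30 (edgeR adjusted p = 0.103, 0.0453 and 0.0846). The 30-day call was lost without day 0 library 1 (-0.36), without day 30 library 1, 3 or 4, day 10 library 2 or 3 or day 60 library 3 or 4 (-0.58 to -0.71), and with scaling by library totals (-0.23). Upper-quartile scaling, limma-voom, a filter at a mean of 1 CPM and a 2-group fit also ended it (-0.59 to -0.71). Itgad, a further beta 2 partner, read 0.675, 0.550, 0.758 and 1.01 CPM at 0 days, 0.783, 0.460, 0.989 and 0.615 at 10 days, 0.886, 1.09, 0.640 and 1.01 at 30 days, and 0.277, 0.617, 0.877 and 0.933 at 60 days. Its groups overlapped and it was never called. Other genes lie over part of Itgb7 (Znf740), Itgae (Haspin) and Itga4 (Cerkl) in the annotation.

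Of the 7 leukocyte members, 4 rose and 0 fell at 10 days, 5 rose and 1 fell at 30 days, and 4 rose and 0 fell at 60 days. Called shares of all tested genes were 62.7%, 64.6% and 59.0% at these times, so the number of leukocyte genes called does not stand out. Their median log2 fold changes were 1.17, 1.35 and 1.38, beside 0.06, 0.05 and 0.04 for all tested genes. Itgal, Itgam and Itgb7 passed the filter only with the injured groups, where they are high. These medians are therefore no independent support for a rise. Itgb2 reached the cutoff in all 4 controls. The 7 macrophage and leukocyte markers summed to 21.8 to 40.1 CPM at 0 days and to 70.2 to 96.7, 105 to 126 and 81.8 to 154 at 10, 30 and 60 days. All 7 of these markers were called higher at 30 and at 60 days and 6 at 10 days. Neutrophil markers gave no single direction at 10 days: S100a8 rose from 0 to 0.110 CPM at 0 days to 2.38 to 7.72 CPM (edgeR adjusted p = 7.43e-06), S100a9 differed by a log2 fold change of -0.34 ± 0.41 (adjusted p = 0.493), and Mpo, too low to test, averaged 0.219 CPM at 0 days and 0.0478 at 10 days. Their part in the integrin values was not tested.

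**Figure D4:**
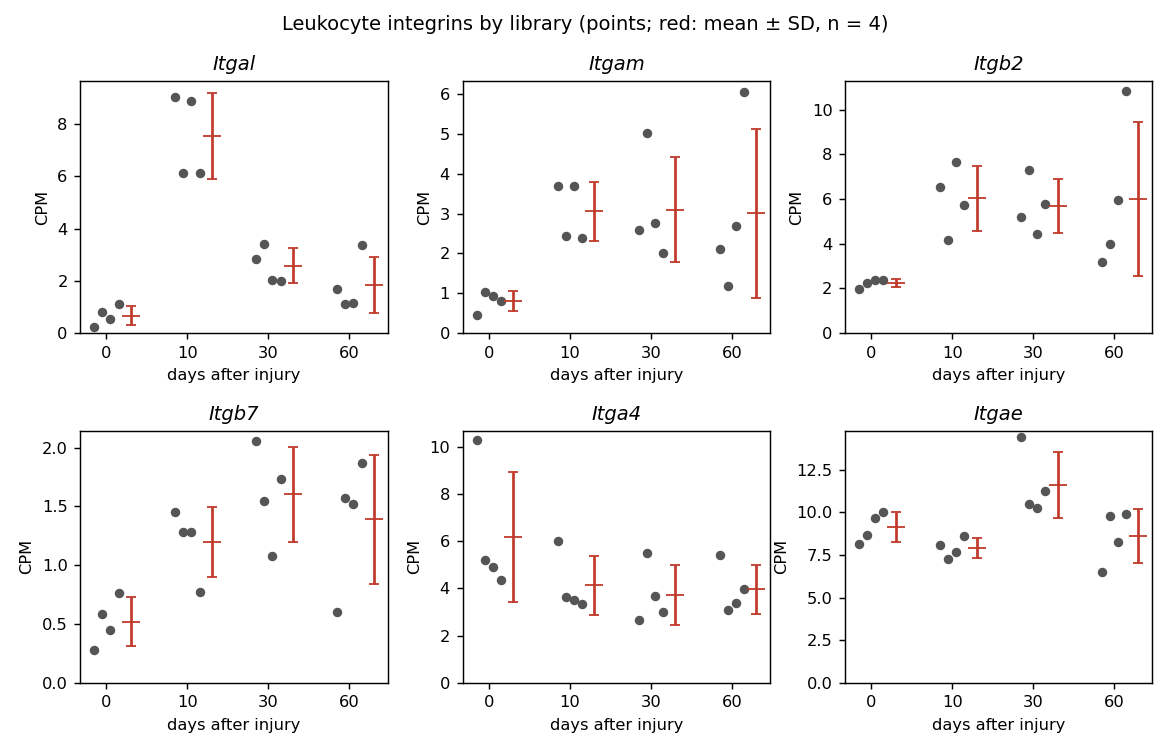
Level in CPM (y axis, from 0) of 6 leukocyte integrin genes in each library at 0, 10, 30 and 60 days (x axis); points are libraries and red bars the mean ± SD, n = 4. Itgal peaks at 10 days (7.55 ± 1.64 CPM against 0.667 ± 0.375 at 0 days), while Itgam stays near 3 CPM at all injured times (3.05 ± 0.735, 3.09 ± 1.32 and 3.01 ± 2.12).

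Itga6 and Itgb4 encode the chains of a laminin receptor known from epithelia and Schwann cells. Itga6 read 42.6, 45.7, 45.2 and 42.0 CPM at 0 days, 29.8, 19.1, 28.3 and 24.2 at 10 days, 35.8, 36.4, 41.0 and 34.2 at 30 days, and 40.4, 59.0, 50.2 and 74.8 at 60 days. The 10- and 30-day libraries lay below all controls. It fell by 0.79 ± 0.16 at 10 days (edgeR adjusted p = 0.000346), a call lost with scaling by library totals (-0.13), and rose by 1.15 ± 0.16 from 10 to 60 days (adjusted p = 1.18e-05).

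Itgb4 read 17.5, 27.3, 15.7 and 18.3 CPM at 0 days, 14.0, 11.5, 13.8 and 12.2 at 10 days, 28.5, 26.3, 24.0 and 20.9 at 30 days, and 30.6, 35.4, 45.4 and 79.9 at 60 days. All 10-day libraries were below and all 60-day libraries above the controls. It fell by 0.62 ± 0.25 at 10 days (edgeR adjusted p = 0.0417) and rose by 1.28 ± 0.25 at 60 days (adjusted p = 0.000427). The fall was lost without day 0 library 2 or 4 or any 1 of the 4 day 10 libraries (-0.41 to -0.66), and with upper-quartile scaling or limma-voom (-0.56 and -0.60), and scaling by library totals turned it to 0.04. The rise from 10 to 60 days, 1.89 ± 0.25 (edgeR adjusted p = 1.06e-05), was 1.54 without day 60 library 4. The log2 ratio of Itgb4 to Itga6, a pair chosen after its values were seen, was -1.18 ± 0.32, -0.96 ± 0.16, -0.57 ± 0.21 and -0.30 ± 0.36 at 0, 10, 30 and 60 days.

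Schwann-cell markers moved with both genes: the 4 summed to 37.6 to 62.0 CPM at 0 days, 18.3 to 35.2 at 10 days, 35.9 to 61.2 at 30 days and 67.0 to 150.1 at 60 days. Of the 4, 1 was called lower at 10 days and all 4 were called higher at 60 days. The highest sum at 60 days was in library 3, whereas Itga6 and Itgb4 were highest in library 4. Endothelial markers were likewise lowest at 10 days. They summed to 197 to 240, 105 to 166, 154 to 178 and 171 to 264 CPM at 0, 10, 30 and 60 days. The part of either marker set in the 2 genes' course was not tested.

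Of the other epithelial and basement membrane members, Itgb6 was between 36.3 and 66.3 CPM in all 16 libraries. It fell by 0.50 ± 0.13 at 10 days on the log2 scale (edgeR adjusted p = 0.00405), a difference that scaling by library totals turned to 0.16. Itgb8 was near the limit of detection, with 0.281, 0.0734, 0 and 0.192 CPM at 0 days, 0.377, 0.131, 0.264 and 0.277 at 10 days, 1.31, 0.736, 0.520 and 0.322 at 30 days, and 0.138, 0.168, 0.409 and 0.356 at 60 days. Its 4 control libraries held 5, 2, 0 and 4 fragments, where a count of 0 allows up to 3. The 30-day libraries lay above all controls, with a log2 fold change of 2.49 ± 0.60 (edgeR adjusted p = 0.00182). The gene passed the filter mostly through that group, where 3 of 4 libraries reached the cutoff, against 0, 1 and 1 at 0, 10 and 60 days, so this call is no independent support for a rise. Of the 9 genes of this class, 3 rose and 4 fell at 10 days, 4 rose and 1 fell at 30 days, and 4 rose and 0 fell at 60 days. Their median log2 fold changes were -0.15, 0.40 and 0.63. Among all tested genes, 33.3%, 33.7% and 29.9% were called higher and 29.4%, 30.9% and 29.1% lower at these times.

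Itgb3, the platelet and osteoclast beta chain, was between 0.287 and 0.933 CPM in all libraries and was called at 60 days against 0 days (0.79 ± 0.33, edgeR adjusted p = 0.0489) and against 10 days (0.85 ± 0.32, adjusted p = 0.0281). The first call was lost without any 1 of 11 libraries, namely day 0 libraries 1, 2 and 4, the 4 day 10 libraries, day 30 library 3, and day 60 libraries 2, 3 and 4 (0.59 to 0.86). The second was lost without day 10 library 1, 2 or 4 or day 60 library 3 or 4 (0.64 to 0.85), and with library totals (0.61). Platelet markers summed to 2.75 to 5.06 CPM at 0 days and 4.88 to 13.2 at 60 days, and their part was not tested. Most of that sum was Pf4, while Ppbp and Gp9 were too low to test, so it is no clear measure of platelets. The non-subunit genes had courses of their own. Itgb3bp rose by 0.93 ± 0.18, 1.37 ± 0.18 and 0.94 ± 0.19 (edgeR adjusted p = 0.000305, 6.67e-06 and 0.000435), and Itgb1bp1, whose product binds and restrains integrin beta 1, rose by 0.31 ± 0.09 at 10 days only (adjusted p = 0.00859).

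**Figure D5:**
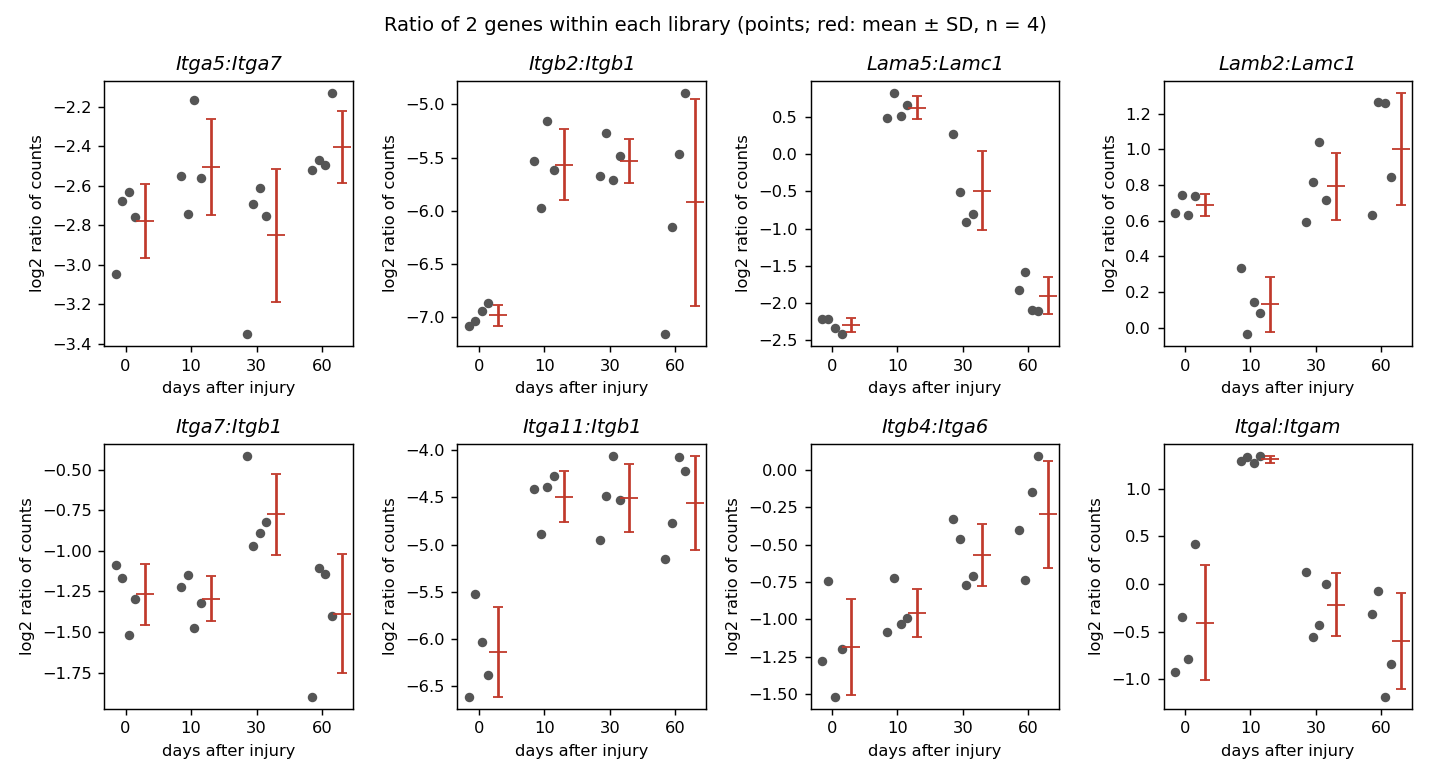
Log2 ratio of the counts of 2 genes in each library (y axis) at 0, 10, 30 and 60 days (x axis) for 8 pairs; points are libraries and red bars the mean ± SD, n = 4. Itga5:Itga7 and Itgb2:Itgb1 were tested, and the other 6 pairs were chosen after their values were seen; Lama5:Lamc1 runs from -2.30 ± 0.10 at 0 days to 0.62 ± 0.15 at 10 days.

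Genes that work with integrins and laminins were read from 3 lists, and their counts of called genes stand beside the 62.7%, 64.6% and 59.0% of all tested genes called at 10, 30 and 60 days. Of 18 adhesion machinery genes tested, which link integrins to actin and to signalling, 3 rose and 7 fell at 10 days, 5 and 8 at 30 days, and 3 and 5 at 60 days, with median log2 fold changes of -0.09, -0.29 and -0.04. Cib2, a calcium- and integrin-binding protein, fell by 3.52 ± 0.19, 2.57 ± 0.18 and 1.69 ± 0.17 (edgeR adjusted p = 5.19e-10, 7.56e-09 and 7.88e-07). Parva, which encodes the actin-binding alpha-parvin, rose by 0.34 to 0.43. Fermt3, the kindlin of blood cells, was -0.41 ± 0.11 at 10 days and 0.35 ± 0.11 at 30 days (edgeR adjusted p = 0.00468 and 0.0119), so that it did not follow Itgb2.

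Of 11 basement membrane partners, 2 rose and 4 fell at 10 days, 3 and 3 at 30 days, and 5 and 2 at 60 days. The medians were -0.53, -0.11 and 0.47, and 62.7%, 64.6% and 59.0% of all tested genes were called. Dag1, which encodes dystroglycan, was called at no time (0.03 ± 0.10, -0.11 ± 0.10 and -0.09 ± 0.10). Sgcb, a sarcoglycan of the dystrophin complex, fell by 1.21, 1.08 and 0.76, and Large, the enzyme that builds dystroglycan's laminin-binding sugar, fell by 0.66, 0.98 and 0.86. Lgals1, a galectin that binds laminin and integrins, rose by 1.87, 1.89 and 0.70. Of 10 counter-ligands of integrins, 4 rose and 3 fell at 10 days, 6 and 3 at 30 days, and 5 and 0 at 60 days. Their medians were 0.51, 0.95 and 0.85, again beside 62.7%, 64.6% and 59.0% of all tested genes called. Spp1 (osteopontin) rose by 3.63, 3.14 and 2.00, Col1a1 (collagen I) by 2.42, 1.79 and 1.33, and Fn1 (fibronectin) by 1.48, 1.18 and 1.40. Icam1, an endothelial partner of the beta 2 integrins, was 0.58 at 10 days (edgeR adjusted p = 0.0576) and rose by 1.04 and 0.94 later. Icam2, on the same list, fell by 1.09 ± 0.12 at 10 days (edgeR adjusted p = 9.94e-07). Vcam1, a partner of VLA-4, was 0.45 at 10 days (edgeR adjusted p = 0.0911) and rose by 0.86 and 0.76 later.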

How the data were processed

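RNA was extracted from the muscle with a column kit, and poly(A) libraries were prepared with an Illumina TruSeq kit, per the labels' protocols. The authors deposited one table of raw fragments per gene and library, made with rn5, TopHat2 2.0.9, Bowtie2 2.1.0.0, Cufflinks and Cuffdiff 2.1.1, per the submitters' processing notes. These deposited values are estimated counts (expected counts), since 233 genes hold a fractional value, and they were rounded to whole counts. The annotation, filters and use of strand are not given in the sources used here.

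All 16 libraries (17.2 M to 39.9 M fragments) entered 1 edgeR 4.0.16 model (R 4.3.3) of the 4 groups, with TMM factors, filterByExpr, a robust quasi-likelihood F test and Benjamini-Hochberg adjustment over 11658 of 17147 genes. Counting error is largest for genes under 1 CPM. The 8 planned ratio tests were exact permutation tests with 0.5 added to each count. In counts simulated for the 10-day comparison with 200 of 11658 genes changed 2-fold, 159 of the 200 were called, with 3 false calls. Far more genes changed in the data, where 62.7% were called at 10 days. The simulation therefore does not cover errors that come from the choice of scaling. Members of the muscle, mesenchymal, leukocyte and broad classes are given by library, and others where called with a log2 fold change of at least 1. From each related list up to 4 genes are named, those with the largest mean change among genes called in 1 direction at all 3 times. Besides them Dag1, Fermt3, Icam1 and Vcam1 are named, with Icam2 set beside Icam1. Members and lists were chosen with earlier results of these data known. Gene overlaps (13 of the 30 members) and promoters (21 of 30) come from RefSeq GRCr8, which was used for names and sequences only, since the counts use rn5. All 30 members matched a RefSeq gene. The values of 1 member and 1 marker gene are not reported here, though both are in the counts, medians and sums. Alternatives were other scalings, DESeq2 1.42.0, limma-voom (limma 3.58.1), other filters, 2-group fits, a replicate block, a covariate for the letter that ends each title, and the removal of 1 library at a time.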

Additional observations from a re-analysis of the deposited data

Results flagged for a closer look

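In the unoperated group, Itga4 in library 1 was 10.3 CPM, while the other 3 libraries were between 4.36 and 5.21 CPM. At 10 days Itga4 in library 1 was 6.01 CPM, beside 3.35 to 3.65 CPM in the rest of its group. Both gaps exceeded Dixon's 95% critical value for 4 samples, 0.829. They were 2 such cases among 120 sets of a gene in a group, where chance alone gives about 1 in 20.

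For 2 genes the difference from the controls was called with opposite signs at 10 and at 60 days, and the difference between those times was itself tested. Itgb4 was 1.89 higher at 60 than at 10 days on the log2 scale, and Lamb2 was 1.28 higher (edgeR's quasi-likelihood test, values and adjusted p given above).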

How the results depend on the processing

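Of 62 member calls over the comparisons of 10, 30 and 60 days with 0 days and of 60 with 10 days, 42 were kept under all alternatives run, and each of those lost is given above for at least 1 of the settings that ended it. A value called neither before nor after a change is given no direction here. Scaling by library totals moved the median of all genes by 0.66, 0.49 and 0.41 at 10, 30 and 60 days and by -0.25 from 10 to 60 days, and upper-quartile scaling by 0.05, 0.12, 0.14 and 0.09. Under library totals 25 members, not 16, were called at 30 days, and the share of all genes called under that scaling is not given here. The sign also turned at 10 days for Itga7 (0.60), Itgae (0.45), Itgb1 (0.63), Itgb4 (0.043), Itgb5 (0.26), Itgb6 (0.16), Lamb3 (0.50) and Lamc1 (0.44), at 30 days for Itgb1 (0.36), Itgb5 (0.010), Itgb6 (0.33) and Lamc1 (0.49), and at 60 days for Itgb5 (0.067). From 30 to 60 days, a fit of those groups alone called 1530 genes, not 2636, and 4 members, not 7, having fewer libraries to estimate the spread. Leaving out 1 library gave 4 to 9 members, the 4 without day 30 library 1. With a replicate block 16 members were called at 10, 30 and 60 days alike, losing Itgb4 at 10 days (-0.60) and Itga8 at 60 days (0.66). Same-numbered libraries did not deviate together (mean correlation of 24 pairs 0.0013, range -0.24 to 0.22), so the numbers were not taken to pair samples. The planned ratios of Lama4 and Lama5 to Lama2 and of Lamb1 to Lamb2 were not run, since Lama2, Lama4 and Lamb1 were not analysed here. Depth limits genes under 1 CPM such as Itgb8, Itgb3, Itgad and Lama1.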
